A study of Mus musculus with 6 samples.

Results

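Prostaglandins are lipid signals made from arachidonic acid. A phospholipase frees the acid from membranes, a cyclooxygenase turns it into a common precursor, and terminal synthases then make the separate prostaglandins, which act on receptors at the cell surface before they are taken up and broken down. In the ovary the pathway is known above all for ovulation, when the gonadotropin surge switches on cyclooxygenase in granulosa cells and prostaglandin E prepares the follicle for rupture. Prostaglandin F, through its own receptor, is known for the regression of the corpus luteum.

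The pathway was described here through 10 genes chosen by symbol, of which 9 were measured among the 16454 genes of the table. These were the phospholipase gene Pla2g4a, the cyclooxygenase gene Ptgs1, the synthase genes Ptges, Ptgis and Ptgds, the receptor genes Ptger2, Ptger4 and Ptgfr, and the breakdown gene Hpgd. The tenth, Ptgs2, which encodes the inducible cyclooxygenase of ovulation, was not measured. No filter on low values was applied here, and all 9 are described.

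RNA was sequenced from whole ovaries of CD1 mice, an outbred stock, at postnatal day 21 in generation F3. The 3 ovaries of the DEHP lineage descended from F0 dams that received DEHP, the phthalate plasticizer di(2-ethylhexyl) phthalate, at 20 µg/kg/day, and the 3 ovaries of the control lineage from dams given tocopherol-stripped corn oil. The comparison asks whether descendants of dosed dams, not themselves dosed, differ in ovarian gene expression. The labels do not say how many founding dams or litters stand behind each lineage, so p-values measure only the spread between these ovaries.

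Values were log2 CPM, read counts scaled to the total of each library, from which the authors had removed a surrogate variable, an estimated nuisance direction across samples. The depth of the libraries is unknown, and summed CPM ranged from 979868 to 1026735. DEHP-lineage ovaries 1 and 3 stood apart as a close pair, with a correlation across genes of 0.998, against 0.978 to 0.989 for the other pairs, and it was on these 2 that the removed direction weighed most, at -0.60 and 0.75. Markers of the ovary were present, with 6 of 6 measured each for granulosa cells, theca cells and oocytes. Summed granulosa markers were at 6600 to 7360 CPM in the DEHP lineage and 5210 to 6630 CPM in the control lineage, theca markers at 2290 to 2360 CPM in the DEHP lineage and 2460 to 3090 CPM in the control lineage, and oocyte markers at 785 to 857 CPM in the DEHP lineage and 849 to 1100 CPM in the control lineage. Of the 6 granulosa markers, 4 had higher and 2 lower means in the DEHP lineage. Inha, at 3820 to 5520 CPM, made up most of their sum. Amh was lower in each DEHP-lineage ovary, at 292 to 345 CPM against 352 to 410 CPM in the control lineage. Differences were tested with limma across all genes, counting the removed direction, with Benjamini-Hochberg adjustment and a threshold of 0.05. In that fit 7 genes were called, 0.0425% of those tested. In RNA of whole ovaries, fewer cells of a type and less RNA per cell cannot be told apart.

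Among the 9 measured genes, the breakdown gene Hpgd and the prostaglandin E synthase gene Ptges led in level per length. Other genes of the pathway were not ranked. Per kilobase of annotated exon, Hpgd had the highest level of the 9, at 124 ± 11.4 CPM per kb, which was higher than that of 98.4% of the genes with a known length (mean ± SD over all 6 ovaries). Ptges followed at 63.2 ± 8.94 CPM per kb, then Ptgis at 30.4 ± 3.01 and Pla2g4a at 12.6 ± 1.42 CPM per kb. These 4 genes kept this order in all 6 ovaries, and their ranges did not overlap. The other 5 genes formed a low group. Ptger2 was at 1.41 ± 0.382 CPM per kb and Ptger4 at 1.24 ± 0.261, with overlapping ranges, and Ptger2 exceeded Ptger4 in only 2 of 6 ovaries. Ptgds was at 0.835 ± 0.241 and Ptgs1 at 0.623 ± 0.189 CPM per kb, again with overlapping ranges. Ptgfr was lowest, at 0.217 ± 0.0566 CPM per kb, and below Ptgs1 in all 6 ovaries. Levels of separate genes in this paragraph are per length, while the values below are CPM of one gene across ovaries.

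**Figure D1:**
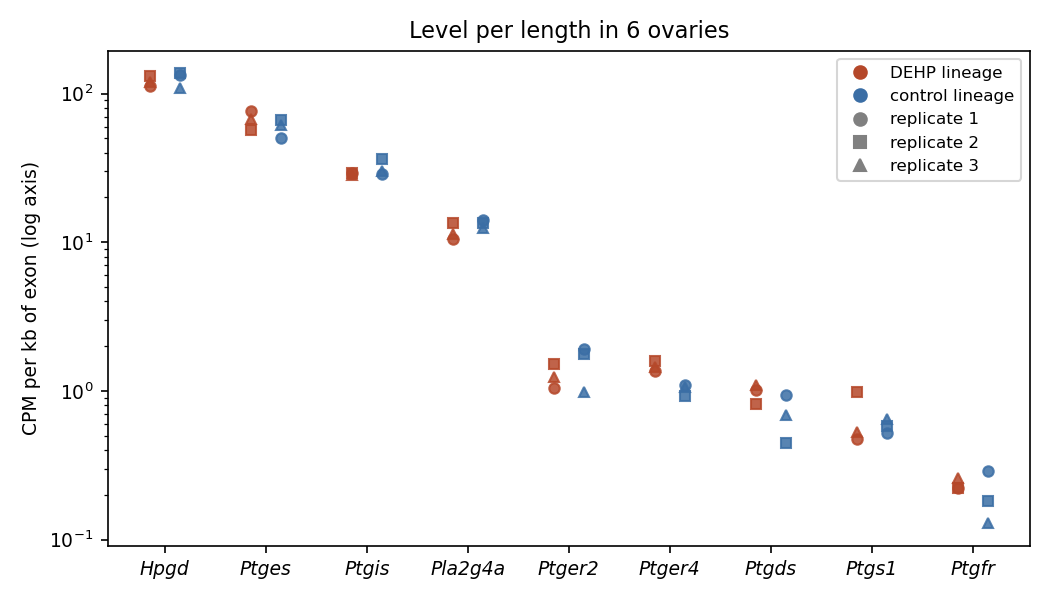
Level of each of the 9 measured genes in CPM per kb of exon on a log axis, by ovary, with DEHP-lineage ovaries in red to the left of control-lineage ovaries in blue and replicates by symbol. Hpgd, Ptges, Ptgis and Pla2g4a lie between 10.5 and 137 CPM per kb, and the other 5 genes between 0.129 and 1.91.

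Of the 9 genes, 0 passed the adjusted threshold between the lineages, against 0.0425% of all genes. At an unadjusted p under 0.05 there was 1, Ptger4, which was higher in the DEHP lineage. Of all genes 8.78% reached that level, 4.76% higher and 4.02% lower. With 4 residual degrees of freedom, the removed direction not counted, 0 of the 9 passed the adjusted threshold, against 0.122% of all genes. The unadjusted count in that fit was 1, and the share of all genes at that level was not computed for it. Means were higher in the DEHP lineage for 5 genes and lower for 4, against 46.9% of all genes higher and 53.1% lower, and the median log2 fold change was 0.11, against -0.01 over all genes. The lineages did not overlap in 1 of the 9 genes, again Ptger4, against 22.9% of all genes, or 10.8% that were apart and higher in the DEHP lineage. These counts changed with single ovaries left out. The fits without 1 ovary still counted the removed direction. It weighed most on DEHP-lineage ovaries 1 and 3, so SEs without either can be too wide. The unadjusted count was 0 without DEHP-lineage ovary 3, against 5.01% of all genes in that fit. Without DEHP-lineage ovary 2 its 1 gene was Pla2g4a (7.28% of all genes), and without control-lineage ovary 3 it was 2, Ptger4 and Ptger2 (7% of all genes). Without DEHP-lineage ovary 2, Ptger4, Ptges, Ptgds and Pla2g4a did not overlap, 4 of 9 against 38% of all genes. Without control-lineage ovary 1 these were Ptger4, Ptgds, Ptgfr and Ptgis (36.3% of all genes), and without control-lineage ovary 3 they were 3, Ptger4, Ptger2 and Hpgd (34.7%).

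**Figure D2:**
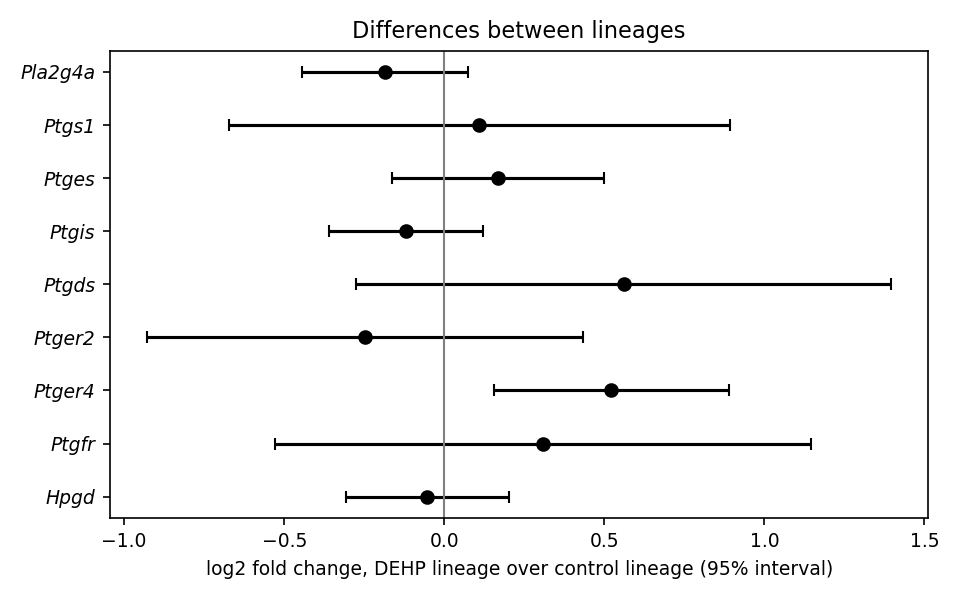
Log2 fold change of the DEHP lineage over the control lineage for the 9 genes, with 95% intervals from limma across all genes (not adjusted for the number of genes). The interval of Ptger4, 0.15 to 0.89, lies above 0, and the other 8 intervals span 0.

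Ptger4 (chromosome 15, 5233399 to 5244187, minus strand, RefSeq GRCm38.p6 as for all positions here) encodes a receptor for prostaglandin E that couples to the stimulatory G protein and raises cyclic AMP. It had 9.05, 10.6 and 9.56 CPM in DEHP-lineage ovaries 1, 2 and 3, against 7.22, 6.14 and 7.02 CPM in control-lineage ovaries 1, 2 and 3. All 3 DEHP-lineage ovaries lay above all 3 control-lineage ovaries. On the log2 scale the difference was 0.52 (SE 0.157), a fold change of 1.44 with a 95% interval of 1.11 to 1.85. It did not pass the threshold over all genes (limma adjusted p = 0.489), and Ptger4 ranked 399 by p among all genes. The unadjusted p was 0.0119, against 0.0503 without DEHP-lineage ovary 2 and 0.0804 without DEHP-lineage ovary 3 (limma). Without DEHP-lineage ovary 3 the log2 difference was 0.53, with an SE of 0.305. That fit still counted the removed direction, which weighed most on the ovary left out, so its SE can be too wide. The value was 0.55 with DEHP-lineage ovaries 1 and 3 averaged into 1 sample (limma adjusted p = 0.528). In the authors' deposited table Ptger4 had a log2 fold change of 0.52 and an adjusted p of 0.731. Of the 6648 exon bases of Ptger4, 1015 lie opposite exons of the antisense gene Gm15937, which was not measured. No source used here gives the strand setting of the authors' counting, so reads of the pair cannot be told apart. Macrophages carry this receptor in mice. Summed macrophage markers, 8 of 8 measured, were at 64.6 to 71.0 CPM in DEHP-lineage ovaries and 39.0 to 104 CPM in control-lineage ovaries. Summed oviduct markers, 5 of 5 measured, were highest in DEHP-lineage ovary 2, with 10.8, 21.8 and 14.6 CPM in DEHP-lineage ovaries 1, 2 and 3, against 14, 7.14 and 6.97 CPM in control-lineage ovaries 1, 2 and 3. By gene, Cfap126, Ovgp1, Foxj1 and Pax8 were highest in DEHP-lineage ovary 2, and Dnah5 in control-lineage ovary 1. The part of macrophages and of oviduct cells in the Ptger4 values was not tested.

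Ptger2 (chromosome 14, 44988111 to 45003820, plus strand), the other receptor for prostaglandin E that raises cyclic AMP, is known in mice for the expansion of the cumulus around the oocyte. Its values were 5.44, 7.91 and 6.48 CPM in DEHP-lineage ovaries 1, 2 and 3, against 9.93, 9.18 and 5.12 CPM in control-lineage ovaries 1, 2 and 3. Control-lineage ovary 3 was the lowest of all 6, and the other 2 control-lineage ovaries were the highest. The log2 difference was -0.25 (SE 0.29, 95% interval -0.93 to 0.43), and it was -0.55 without control-lineage ovary 3 and -0.07 without control-lineage ovary 1.

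The 2 receptors share a ligand, and their ratio within an ovary does not depend on the scaling of the library. The log2 ratio of Ptger4 to Ptger2, in CPM, was 0.73, 0.43 and 0.56 in DEHP-lineage ovaries 1, 2 and 3, against -0.46, -0.58 and 0.46 in control-lineage ovaries 1, 2 and 3. Control-lineage ovary 3 lay within the DEHP-lineage range. The means were 0.57 ± 0.15 in the DEHP lineage and -0.19 ± 0.57 in the control lineage (SD). The difference of 0.77 had a p of 0.2 in an exact permutation test (two-sided, n = 3 each, smallest p possible 0.1), or 0.4 adjusted over the 2 ratios tested. The test did not allow for the removed direction, which took spread mainly from the DEHP lineage, so its p and these SDs are descriptions only. The ratio was chosen after the values of both genes had been seen.

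The promoters of these 2 receptor genes are shown because they differ in base composition while the genes had similar levels per length. The 250 bases before each start are from RefSeq's GRCm38.p6, 5′ to 3′ on the gene's strand, with capitals for matches to the GC box (GGGCGG) and the CCAAT box (CCAAT) on either strand.
Ptger4, chr15:5244188-5244437, minus strand: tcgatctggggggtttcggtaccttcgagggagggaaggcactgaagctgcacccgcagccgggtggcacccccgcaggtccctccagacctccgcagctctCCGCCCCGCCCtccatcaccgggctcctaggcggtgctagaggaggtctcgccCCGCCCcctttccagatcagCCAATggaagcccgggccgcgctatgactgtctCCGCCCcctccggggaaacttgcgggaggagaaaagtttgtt
Ptger2, chr14:44987861-44988110, plus strand: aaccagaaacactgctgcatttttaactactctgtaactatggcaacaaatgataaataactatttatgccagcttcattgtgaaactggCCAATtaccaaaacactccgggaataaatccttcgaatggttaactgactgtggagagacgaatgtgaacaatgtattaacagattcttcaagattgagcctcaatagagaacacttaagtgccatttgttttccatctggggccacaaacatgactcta
The Ptger4 window was 66.8% G and C and the Ptger2 window 38%, against a median of 52.4% over all promoter windows of this length. Ptger4 held 4 GC boxes, of which the first 2 overlap by 1 base, and 1 CCAAT box. Ptger2 held 1 CCAAT box and 0 GC boxes. A GC box was present in 32.97% and a CCAAT box in 33.81% of the 32536 promoter windows searched. Neither window held the cyclic AMP response element TGACGTCA, present in 1.56% of all windows, the AP-1 site TGANTCA (6.73%), the NR5A1 site AAGGTCA (4.09%) or the TATA box TATAAA (12.31%). A match is a run of letters and no measured binding.

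Ptgfr (chromosome 3, 151798610 to 151837528, minus strand) encodes the receptor for prostaglandin F, which couples to calcium release. It had 1.496, 1.51 and 1.76 CPM in DEHP-lineage ovaries 1, 2 and 3, against 1.95, 1.23 and 0.873 CPM in control-lineage ovaries 1, 2 and 3. The control-lineage ovaries spanned the whole range, with the DEHP-lineage ovaries inside it. The log2 difference was 0.31 (SE 0.357, 95% interval -0.53 to 1.15) and came to 0.03 without control-lineage ovary 3. Differences of genes near 1 CPM depend on the prior count in the authors' log2 values, which no source used here states.

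Pla2g4a encodes the cytosolic phospholipase that frees arachidonic acid after a rise in calcium. It had 67.1, 86.6 and 72.2 CPM in DEHP-lineage ovaries 1, 2 and 3, against 89.9, 86.5 and 79.3 CPM in control-lineage ovaries 1, 2 and 3. DEHP-lineage ovaries 1 and 3 were the lowest of the 6, while DEHP-lineage ovary 2 matched control-lineage ovary 2. The log2 difference was -0.19 (SE 0.111, 95% interval -0.45 to 0.07, limma adjusted p = 0.672), and it was -0.29 without DEHP-lineage ovary 2. Pla2g4a (chromosome 1, 149829618 to 149961290, minus strand) lies near Ptgs2 (150100031 to 150108234) in RefSeq's GRCm38.p6, 138740 bases apart with 0 protein-coding genes between them.

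Ptgs1 (chromosome 2, 36216742 to 36258593, plus strand) encodes the cyclooxygenase that many tissues make without a stimulus. Its values were 1.83, 3.84 and 2.04 CPM in DEHP-lineage ovaries 1, 2 and 3, against 2.03, 2.24 and 2.52 CPM in control-lineage ovaries 1, 2 and 3. DEHP-lineage ovary 2 had the highest value, and DEHP-lineage ovary 1 the lowest. The log2 difference was 0.11 (SE 0.334, 95% interval -0.67 to 0.89), and it turned to -0.22 without DEHP-lineage ovary 2. Summed adipocyte markers, 6 of 6 measured, were also highest in DEHP-lineage ovary 2, with 45.7, 475 and 93.0 CPM in DEHP-lineage ovaries 1, 2 and 3, against 218, 98.9 and 59.6 CPM in control-lineage ovaries 1, 2 and 3. By gene, Cfd, Fabp4, Adipoq and Cidec were highest in DEHP-lineage ovary 2, while Plin1 and Lep were highest in control-lineage ovary 1. In the control lineage Ptgs1 was lowest in ovary 1, which had the most adipocyte signal there. The part of adherent fat in the Ptgs1 values was not tested. Mast cell markers, cells known for cyclooxygenase in mice, were not measured, 0 of 6, and of 5 platelet markers only Itga2b was, at 1.75, 2.40 and 1.76 CPM in DEHP-lineage ovaries and 0.886, 1.00 and 1.25 CPM in control-lineage ovaries. The 2 genes with profiles most like that of Ptgs1 over the 6 ovaries were Tpcn2, a calcium channel gene of endolysosomes (Pearson r 1.00), and Pkmyt1, a kinase gene of mitotic entry (0.997). Among 13062 genes with a mean log2 CPM of at least 1, 149 had r over 0.9. Ptgs1 deviated from its mean by 0.71 in DEHP-lineage ovary 2 and by -0.35 to 0.11 in the other ovaries. A search of this many genes over 6 ovaries can reach such r without any link between the genes.

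Ptges (chromosome 2, 30889471 to 30931020, minus strand) encodes the inducible membrane synthase of prostaglandin E. It had 298, 225 and 265 CPM in DEHP-lineage ovaries 1, 2 and 3, against 197, 262 and 243 CPM in control-lineage ovaries 1, 2 and 3. The lineages overlapped, with DEHP-lineage ovary 2 below 2 of the control-lineage ovaries. Its log2 difference was 0.17 (SE 0.142, 95% interval -0.16 to 0.50). It was 0.28 without DEHP-lineage ovary 2 and 0.05 without control-lineage ovary 1.

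Ptgis (chromosome 2, 167203194 to 167252150, minus strand) encodes prostacyclin synthase, known from vascular endothelium and smooth muscle. Its values were 75.6, 75.0 and 72.9 CPM in DEHP-lineage ovaries 1, 2 and 3, against 73.3, 93.3 and 77.4 CPM in control-lineage ovaries 1, 2 and 3. It was the steadiest of the measured genes within the DEHP lineage, with an SD of 0.0276 on the log2 scale. The SD was 0.183 in the control lineage. The removed direction took spread mainly from the DEHP lineage, so these SDs cannot be compared. A log2 difference of -0.12 was found (SE 0.102, 95% interval -0.36 to 0.12). Summed smooth muscle markers, 7 of 7 measured, ranged from 1590 to 1860 CPM in the DEHP lineage and from 1990 to 2220 CPM in the control lineage, and 4 of the 7 did not overlap between the lineages, against 22.9% of all genes. Summed endothelial markers, 7 of 7, ranged from 293 to 344 CPM in the DEHP lineage and from 324 to 359 CPM in the control lineage. Their part in the Ptgis values was not tested.

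Ptgds (chromosome 2, 25466709 to 25470110, minus strand) encodes the lipocalin-type synthase of prostaglandin D. It had 1.68, 1.35 and 1.82 CPM in DEHP-lineage ovaries 1, 2 and 3, against 1.54, 0.734 and 1.137 CPM in control-lineage ovaries 1, 2 and 3. Control-lineage ovary 2 was the lowest, and control-lineage ovary 1 lay inside the DEHP-lineage range. The log2 difference of 0.56 was the highest of the 9 but had an SE of 0.357 and a 95% interval of -0.28 to 1.40 (limma adjusted p = 0.691). It was 0.28 without control-lineage ovary 2.

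Hpgd (chromosome 8, 56294552 to 56321046, plus strand) encodes hydroxyprostaglandin dehydrogenase, the first enzyme of prostaglandin breakdown. It had 191, 221 and 202 CPM in DEHP-lineage ovaries 1, 2 and 3, against 225, 230 and 184 CPM in control-lineage ovaries 1, 2 and 3. The lineages overlapped throughout, and control-lineage ovary 3 was lowest. Between the lineages the log2 difference was -0.05, with a 95% interval of -0.31 to 0.20, a fold change between 0.808 and 1.15, so a larger change than that lay outside the interval. The log2 ratio of Ptges to Hpgd, synthesis over breakdown, was 0.64, 0.02 and 0.39 in DEHP-lineage ovaries 1, 2 and 3, against -0.19, 0.19 and 0.40 in control-lineage ovaries 1, 2 and 3. The difference of 0.22 had a p of 0.5 in an exact permutation test (two-sided, n = 3 each, 0.5 adjusted over the 2 ratios). This test, too, did not allow for the removed direction, so its p is a description only.

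**Figure D3:**
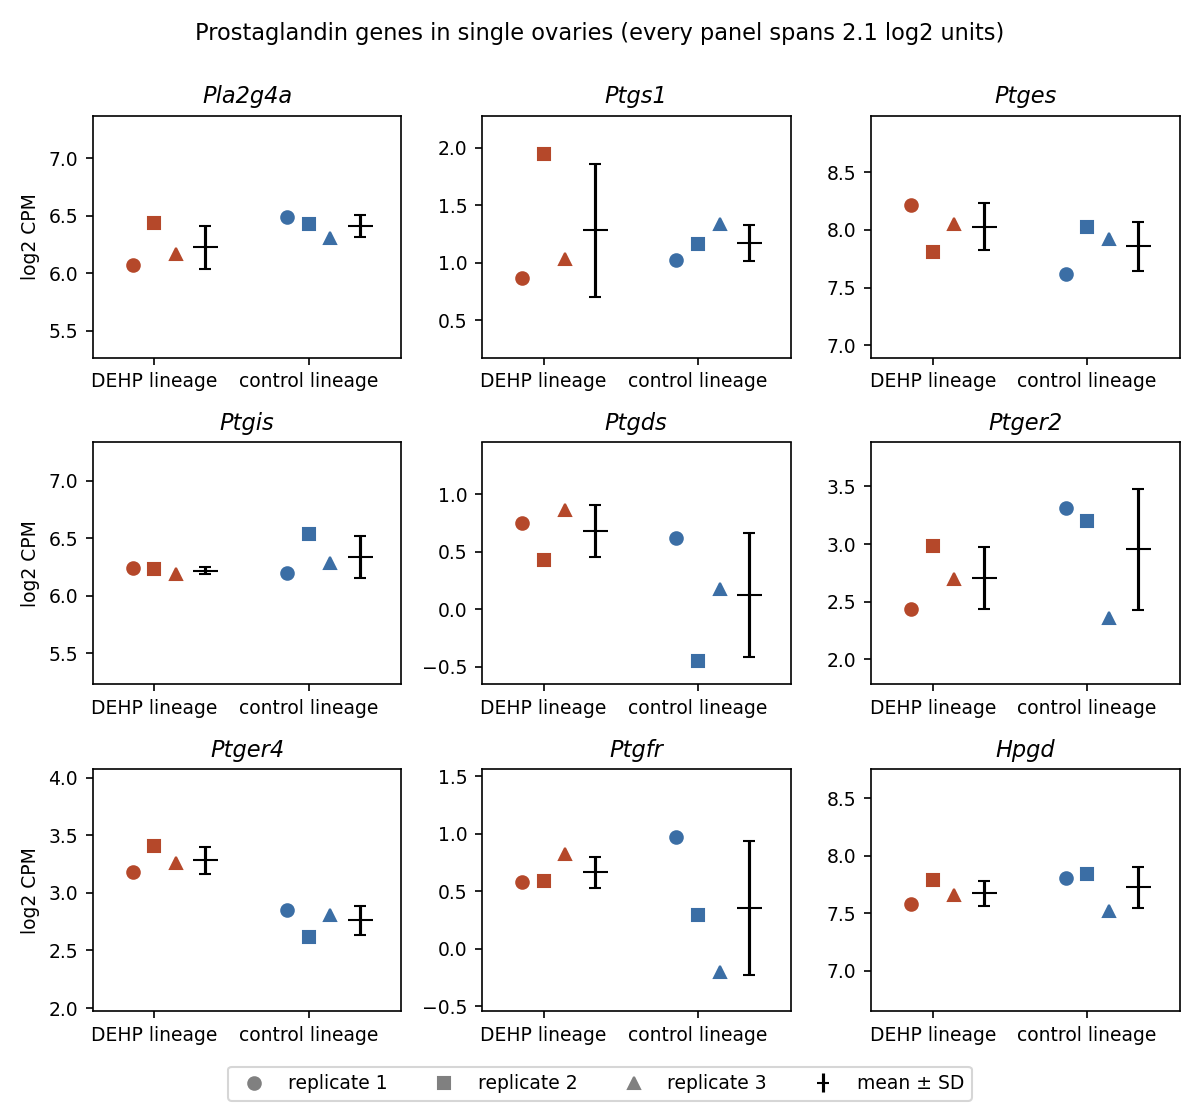
Log2 CPM of the 9 genes in each ovary, the DEHP lineage left of the control lineage in every panel, with replicates by symbol and the mean ± SD (n = 3) as black bars. The lineages are apart for Ptger4, at 3.18 to 3.41 against 2.62 to 2.85, and overlap in the other 8 panels.

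Within the DEHP lineage, ovary 2 held the highest or the lowest of the 3 values for 7 of the 9 genes, all but Ptgis and Ptgfr, against 90.9% of all genes. Over the 9 genes, DEHP-lineage ovaries 1 and 3 differed by a median of 0.117 on the log2 scale, and the other 14 pairs of ovaries by medians of 0.194 to 0.357. Over all genes the same medians were 0.054 for DEHP-lineage ovaries 1 and 3 and 0.132 to 0.212 for the other pairs, so the likeness of these 2 ovaries was one of the whole table. The removed direction weighs on ovaries 1 and 3 with opposite signs, and its part in their likeness was not tested. The SD was smaller in the DEHP lineage for 7 of the 9 genes, against 69.6% of all genes. The removed direction weighed -0.6, -0.152 and 0.751 on DEHP-lineage ovaries 1, 2 and 3. On control-lineage ovaries 1, 2 and 3 it weighed -0.188, 0.085 and 0.103. Its removal took spread mainly from the DEHP lineage, so SDs cannot be compared between the lineages. No ovary was high or low for the pathway as a whole. Control-lineage ovary 3 was the lowest of the 6 for 3 genes, Hpgd, Ptger2 and Ptgfr, and control-lineage ovary 1 the highest for 3, Ptger2, Ptgfr and Pla2g4a.

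**Figure D4:**
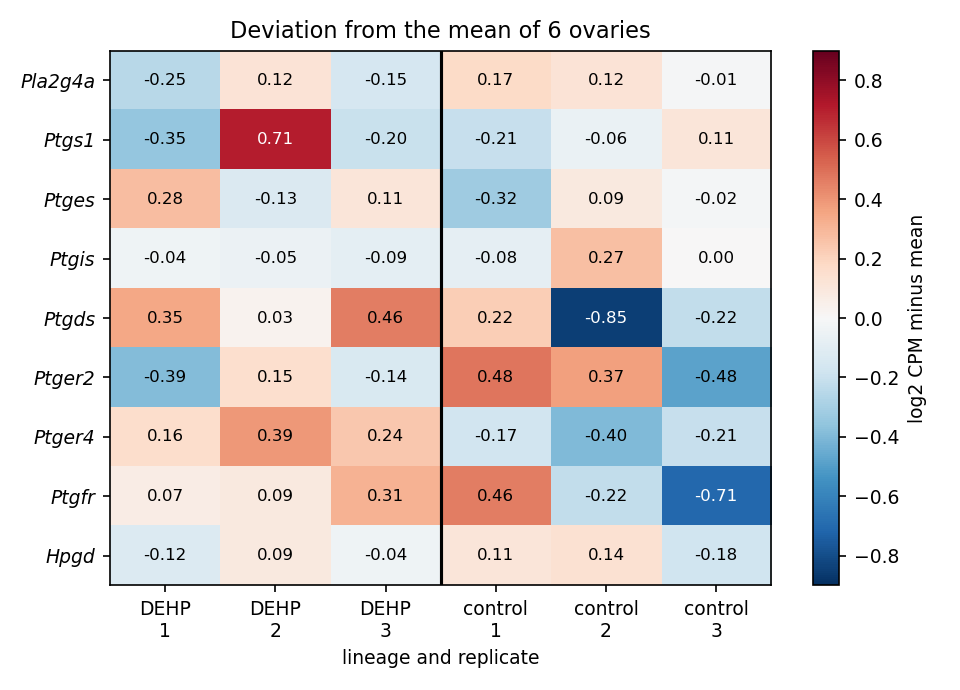
Log2 CPM of each gene minus its mean over the 6 ovaries, with DEHP-lineage ovaries left of the black line and control-lineage ovaries right of it; red is above the mean and blue below it. Ptger4 is positive in the 3 DEHP-lineage ovaries and negative in the 3 control-lineage ovaries, and Ptgs1 is at 0.71 in DEHP-lineage ovary 2.

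Other genes of the pathway and of the ovulatory cascade were taken from 6 lists of 61 genes, of which 48 were measured. Of these, 0 passed the adjusted threshold, and 6 reached an unadjusted p under 0.05 (12.5%, against 8.78% of all genes). Of these 6, 1 had a higher mean in DEHP-lineage ovaries and 5 a lower one. The lineages did not overlap for 10 of the 48 (20.8%, against 22.9% of all genes).

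Among the other phospholipase and lipase genes, 12 of 16 were measured, with a median log2 fold change of -0.02. Pla2g4c, a relative of Pla2g4a that needs no calcium, had 88.6, 83.1 and 89.9 CPM in DEHP-lineage ovaries 1, 2 and 3, against 119, 107 and 107 CPM in control-lineage ovaries 1, 2 and 3. The lineages did not overlap, and the log2 difference was -0.35 (SE 0.0785, limma adjusted p = 0.382). Pla2g4f, next by p, was at 0.69 with a 95% interval of -0.28 to 1.67.

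All 7 of the other terminal synthase genes were measured, with a median of -0.12, and none reached an unadjusted p under 0.05. Akr1b3, an aldose reductase that can form prostaglandin F, was at -0.16 (95% interval -0.41 to 0.09), and the carbonyl reductase gene Cbr1 at -0.10 (-0.29 to 0.10). Of the other receptor genes 5 of 7 were measured, with a median of 0.13. The thromboxane receptor gene Tbxa2r was at -0.53 (-1.31 to 0.25), and Ptgdr2, a receptor for prostaglandin D, at 0.44 (-0.39 to 1.28).

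All 6 transport and catabolism genes had lower means in the DEHP lineage, against 53.1% of all genes. Their median was -0.11, and 1 reached an unadjusted p under 0.05, against 8.78% of all genes. Slco2a1 encodes the transporter that takes prostaglandins into cells for breakdown. It had 22.3, 30.5 and 23.2 CPM in DEHP-lineage ovaries 1, 2 and 3, against 31.4, 32.4 and 36.8 CPM in control-lineage ovaries 1, 2 and 3. The lineages did not overlap, though DEHP-lineage ovary 2 lay close to control-lineage ovary 1, and the log2 difference was -0.42 (SE 0.143, limma adjusted p = 0.499). Akr1c18, which encodes an enzyme that inactivates progesterone and can reduce prostaglandins, was at -0.71 (95% interval -1.62 to 0.21). Its lineages did not overlap either, at 0.391 to 0.522 CPM in the DEHP lineage and 0.529 to 1.04 CPM in the control lineage.

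The ovulatory cascade list had 13 of 16 genes measured, 7 with higher and 6 with lower means, and a median of 0.09. Ptx3, a pentraxin of the cumulus matrix, had 6.51, 6.26 and 6.47 CPM in DEHP-lineage ovaries 1, 2 and 3, against 3.05, 3.63 and 2.62 CPM in control-lineage ovaries 1, 2 and 3. The lineages were well apart, and the log2 difference of 1.06 (SE 0.202) still did not pass over all genes (limma adjusted p = 0.272). The progesterone receptor gene Pgr, needed for follicle rupture, had 3.67, 4.52 and 3.75 CPM in DEHP-lineage ovaries 1, 2 and 3, against 6.64, 4.70 and 10.4 CPM in control-lineage ovaries 1, 2 and 3. It was lower in each DEHP-lineage ovary, at -0.79 on the log2 scale (SE 0.304, limma adjusted p = 0.54), with control-lineage ovary 2 close to DEHP-lineage ovary 2. The protease gene Adamts1 was at -0.24 (SE 0.0833, limma adjusted p = 0.511).

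The remaining genes named for this cascade had intervals that span 0. Tnfaip6, which links hyaluronan chains in the cumulus matrix, was at 0.39 (95% interval -0.25 to 1.03), with the lineages apart at 1.69 to 2.21 CPM in the DEHP lineage and 1.2 to 1.62 CPM in the control lineage. The hyaluronan synthase gene Has2 was at 0.41 (-1.11 to 1.93), and like Ptgs1 it was highest in DEHP-lineage ovary 2. Lhcgr, the receptor for luteinizing hormone, was at -0.34 (-0.90 to 0.22). Areg, Edn2 and Il6 were not measured.

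**Figure D5:**
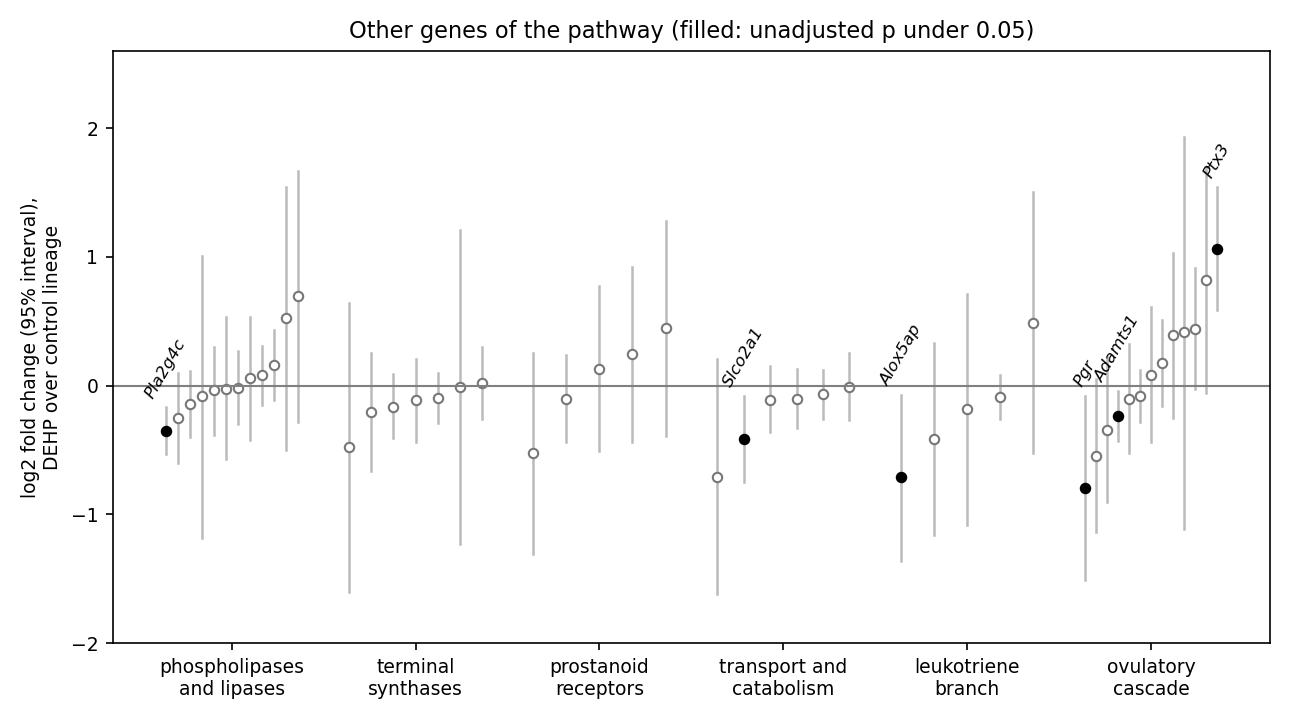
Log2 fold change of the DEHP lineage over the control lineage with 95% intervals (not adjusted) for the 48 measured genes of 6 lists, ordered by value within each list. Filled points mark the 6 genes with an unadjusted p under 0.05, and Ptx3 at 1.06 is the 1 of them above 0.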

How the data were processed

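The authors deposited 1 table of log2 CPM per ovary, beside their p-value, adjusted p, log2 fold change and signed fold change per gene. Per the submitters' processing notes, build GRCm38.p6 was used with edgeR 3.20.5 in R 3.4.3, featureCounts, STAR 2.5.3a, Subread 1.5.2, bcl2fastq 2.17.1.14, Trimmomatic 0.36 and FastQC 0.11.5. No source used here gives their settings or the prior count. Removal of a surrogate variable is stated in the title of the deposited table, and the deviations from the lineage means filled 3 directions in place of 4.

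The fit used limma 3.58.1 in R 4.3.3 with a mean-variance trend on the values as deposited, 3 residual degrees of freedom and no further filter, two-sided, adjusted over 16454 genes. The fit was also run on simulated data, and the results of that run are not given here. SDs and ratios are of values after the removal, so they understate the spread of the ovaries, mainly in the DEHP lineage. CPM is 2 to the power of the deposited value. Exon lengths are those of GENCODE M21 (GRCm38), found for 14466 genes (87.92%), and promoters, found for 9 of the 10 genes, are RefSeq's of GRCm38.p6. Genes of each list were named by p (the 2 smallest), beside Pgr, Lhcgr, Tnfaip6 and Has2; the 2 ratios were chosen after the values were seen. The genes and lists were chosen with earlier results of these data known.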

Additional observations from a re-analysis of the deposited data

How the results depend on the processing

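None of the 9 genes was called in any of the 14 alternatives run (13 for Ptgds and Ptgfr, which a filter at a mean log2 CPM of 1 left out). For Ptger4 the log2 difference stayed between 0.45 and 0.57, with limma adjusted p from 0.166 to 1. With 1 ovary left out, Ptgs1 ranged from -0.221 (without DEHP-lineage ovary 2) to 0.313 and Hpgd from -0.155 to 0.00597 (without control-lineage ovary 2), so both turned direction, and none of the other 7 genes did in the alternatives run. The count of genes called over the table, 7, was 20 with 4 residual degrees of freedom, 3 after quantile normalization and 1 without the mean-variance trend, and 3 (without control-lineage ovary 2) to 270 (without DEHP-lineage ovary 1) with 1 ovary left out; the cause was not tested. Leaving out 1 ovary gave 0 to 2 of the 9 at an unadjusted p under 0.05 and 1 to 4 without overlap. These fits still counted the removed direction, which weighed most on DEHP-lineage ovaries 1 and 3, so SEs without either can be too wide. Deviations of same-numbered ovaries had correlations of -0.327, -0.00343 and -0.198, and 0 of 3 DEHP-lineage ovaries correlated best with their own number. The lineage means and the removed direction tie these deviations to each other. They therefore cannot show whether replicate numbers pair the ovaries. With the replicate number as a block, 83 genes were called over the table, 0 of the 9 reached an unadjusted p under 0.05 and Ptger4 had an adjusted p of 1. The share of all genes at an unadjusted p under 0.05 was not computed for the block fit. Depth is unknown, so the precision of Ptgs1, Ptgds and Ptgfr, near 1 to 4 CPM, cannot be given.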

Other observations

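The leukotriene branch, which uses the same arachidonic acid through lipoxygenase, had 5 of 9 genes measured. Of the 5, 4 had lower means in the DEHP lineage, against 53.1% of all genes, and the median log2 fold change was -0.18. The lipoxygenase genes Alox5, Alox12 and Alox15 were not measured. Alox5ap, which encodes the protein that presents arachidonic acid to lipoxygenase, had 1.38, 1.40 and 1.40 CPM in DEHP-lineage ovaries 1, 2 and 3, against 2.38, 1.77 and 2.81 CPM in control-lineage ovaries 1, 2 and 3. The lineages did not overlap, and the log2 difference was -0.71 (SE 0.275, limma adjusted p = 0.543). Cysltr2, a receptor for cysteinyl leukotrienes, was at -0.41 (95% interval -1.16 to 0.33). Summed macrophage markers overlapped between the lineages, at 64.6 to 71.0 CPM in the DEHP lineage and 39.0 to 104 CPM in the control lineage.

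Other marker lists varied between ovaries. Erythroid markers, 4 of 5 measured, summed to 278, 115 and 206 CPM in DEHP-lineage ovaries 1, 2 and 3, against 65.4, 77.0 and 126 CPM in control-lineage ovaries 1, 2 and 3. Surface epithelium markers (8 of 8) were at 90.5 to 97.7 CPM in the DEHP lineage and 81.7 to 97.3 CPM in the control lineage, and stromal markers (5 of 5) at 1470 to 1550 CPM in the DEHP lineage and 1360 to 1690 CPM in the control lineage.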
